A study of Mus musculus with 11 samples.

Results

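The genes that cut and trim fibrillar procollagen outside the cell were examined in whole distal tibiae of mice whose bone marrow adipocytes (BMAds) were targeted for ablation. The set held 7 genes, Bmp1, Tll1, Pcolce, Pcolce2, Adamts2, Adamts3 and Adamts14, chosen by gene symbol out of the 22600 genes in the merged count table. Each symbol matched a single entry, and all 7 genes passed the filter on low counts. RNA came from 4 controls, labelled BMAd-WT for genotype, and 7 BMAd-DTA mice, with 1 strand-specific mRNA library per mouse. All mice were of a C57BL6/SJL background, were 24 weeks old and ate ad libitum. In BMAd-DTA mice a diphtheria toxin A gene at the ROSA26 locus is switched on by BMAd-Cre, which leads to the death of the cells expressing it. BMAd-Cre joins an FLPo recombinase driven by Osterix, an osteoblast lineage gene, to an FLPo-dependent Cre at the Adipoq locus. According to the study's methods, control and mutant mice alike carried both of these alleles, a cross that itself lowers circulating adiponectin. By the study's account, Cre was not active in every BMAd and also reached a small subset of marrow adipogenic lineage precursors, so the model was neither complete nor fully restricted to BMAds.

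Fibrillar collagens are secreted as procollagens with a propeptide at each end, and fibrils form properly once both propeptides are removed. Bmp1 encodes the main procollagen C-proteinase, as the short BMP1 form and, through alternative splicing, the longer mammalian tolloid, and Tll1 encodes a close relative, tolloid-like 1. Pcolce and Pcolce2 encode procollagen C-proteinase enhancers, secreted proteins that bind the C-propeptide and speed up its removal without cutting it themselves. Adamts2, Adamts3 and Adamts14 encode the procollagen N-proteinases, of which ADAMTS3 is also known for activating the lymphatic growth factor VEGF-C together with CCBE1. In bone, most of the substrate is type I procollagen made by osteoblasts, and loss of BMP1, ADAMTS2 or PCOLCE function impairs connective tissue or bone in humans or mice.

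Each proteinase carries a zinc-binding signature in its catalytic domain, and the coding sequence of that site is shown to make clear how closely related, yet separable, the measured transcripts are. The sites were found by translating GENCODE M21 transcripts on GRCm38, where 69 of 21901 protein-coding genes (0.32%) held the signature. Each is printed 5′ to 3′ with the codons of the 3 zinc-binding histidines and of the catalytic glutamate in capitals, and Tll2, the remaining tolloid-like gene, is added for comparison.
Bmp1: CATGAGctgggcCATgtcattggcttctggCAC
Tll1: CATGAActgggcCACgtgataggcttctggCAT
Tll2: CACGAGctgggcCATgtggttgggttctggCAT
Adamts2: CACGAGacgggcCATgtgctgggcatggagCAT
Adamts3: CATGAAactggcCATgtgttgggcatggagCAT
Adamts14: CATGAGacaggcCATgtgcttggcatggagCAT
The Bmp1 site lay on the minus strand at chr14:70508060-70508092 in exon 5 of its longest coding transcript, and the Tll1 site at chr8:64101898-64101930, also on the minus strand, in exon 6. The Adamts2 site began in exon 7 and ran across an intron, so that its 33 bases spanned chr11:50775403-50776134 on the plus strand. The sites of Adamts3 (chr5:89707433-89707818) and Adamts14 (chr10:61225465-61227123), both on the minus strand, were likewise split by an intron. The Bmp1 and Tll1 sites shared 28 of 33 bases, and those of Adamts2 and Adamts14 shared 30. Over whole transcripts, the longest identical stretch was 23 bases between Bmp1 and Tll1, 28 bases between Adamts2 and Adamts3, and 12 bases between Pcolce and Pcolce2. All of these were shorter than a read, so no read can match both genes of a pair exactly. Counts per gene do not separate the BMP1 and tolloid forms of Bmp1.

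The merged counts per library summed to 16969529 to 18637663, and the totals of the groups overlapped. Levels are given as CPM, the counts of a gene scaled to a library of a fixed size after trimmed-mean (TMM) scaling of the library totals. No pair of libraries within a group agreed within sampling noise. The labels gave no sex. Every library held between 13810 and 20260 counts of Xist, and 4 Y-linked genes together gave at most 1 count, which goes against the male sex that the study's description of these mice gives. Markers of bone and marrow were present, and 6 neutrophil markers alone summed to 15565 to 22812 CPM. The 8 adipocyte markers were all fitted lower in BMAd-DTA mice, with sums of 225 to 871 CPM against 649 to 1427 CPM in controls, and 1 of them, Retn, passed the test. In whole bone, fewer cells of a type and less RNA per cell cannot be told apart.

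The main C-proteinase, its main enhancer and the main N-proteinase had higher transcript levels in BMAd-DTA mice, but no member passed the threshold of the edgeR quasi-likelihood test. Bmp1 averaged 1.91-fold, Adamts2 1.58-fold and Pcolce 1.41-fold the control level, whereas no BMAd-DTA library exceeded the range of the controls for Tll1 and Adamts3. For Pcolce2, 3 of 7 libraries did. With an adjusted p under 0.05 as the threshold, 0 of 7 members passed, where 0.0727% of the 16496 genes tested passed with a higher level in BMAd-DTA mice. At an unadjusted p under 0.05, 4 of 7 members were higher (Bmp1, Pcolce, Adamts2 and Adamts14), beside 7.89% of all genes. DESeq2, the tool the study used, placed 3 of 7 members (Bmp1, Pcolce and Adamts2) past its adjusted threshold. Beside them stood 2.78% of the genes to which it gave an adjusted p, and it gave none to Tll1. In none of the 7 genes did the groups fully separate, beside 1.78% of all genes in which every BMAd-DTA library was above every control. The members were chosen with earlier results of these data known, so setting their counts beside all genes is not an unbiased comparison. The median log2 fold change over all genes was 0.0018.

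Bmp1 (minus strand, chr14:70474558-70520234) had the highest fold among the members. The controls measured 56.1, 107, 142 and 98.9 CPM, and the BMAd-DTA libraries ranged from 140 to 292 CPM with a median of 192 CPM. Of the 7 BMAd-DTA libraries, 6 lay above every control, and the remaining one, BMAd-DTA 7, fell just under Control 3. The means were 101 ± 35.4 CPM (SD, n = 4) and 193 ± 51.5 CPM (SD, n = 7). The log2 fold change was 0.94 ± 0.24 (SE; edgeR adjusted p = 0.0895, DESeq2 adjusted p = 0.0192). An exact permutation test of Bmp1 alone over all 330 splits of the mice, two-sided and unadjusted, gave p = 0.00606, where 0.00303 was the smallest possible value.

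Tll1 (minus strand, chr8:64014931-64206271) was close to the limit of detection at this depth. Its counts were 13, 3, 16 and 9 in the controls and 5 to 16 in BMAd-DTA libraries, and the levels were 0.576 ± 0.33 CPM (SD, n = 4) and 0.591 ± 0.26 CPM (SD, n = 7). The groups overlapped completely, and the log2 fold change of 0.037 ± 0.45 (SE; edgeR adjusted p = 0.980) had an interval from -0.94 to 1.02, so a difference of moderate size in either direction could not be detected at this depth.

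Among the enhancers, Pcolce (minus strand, chr5:137605103-137613784) had the smallest scatter within groups of all members, with coefficients of variation of 15.9% in controls and 10.6% in BMAd-DTA mice. The controls measured 83.6, 83.7, 116 and 95.7 CPM, and the BMAd-DTA libraries 106 to 151 CPM with a median of 136 CPM. Again 6 of 7 BMAd-DTA libraries were above every control, with BMAd-DTA 7 between Control 4 and Control 3. Means were 94.6 ± 15.04 CPM (SD, n = 4) and 134 ± 14.2 CPM (SD, n = 7), a log2 fold change of 0.50 ± 0.11 (SE; edgeR adjusted p = 0.0675, DESeq2 adjusted p = 0.00141; exact permutation p = 0.00606). The 5′ end of Pcolce shares 112 exonic bases with Fbxo24 on the same strand, and pairs there are ambiguous. Fbxo24 itself had 0 to 9 counts per library. Gm36266, antisense to that end, was counted apart on the other strand.

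Pcolce2 (plus strand, chr9:95637601-95698096), the second enhancer, was less abundant, and its difference did not pass. The controls measured 10.03, 6.12, 11.8 and 7.31 CPM, and the BMAd-DTA libraries 7.22 to 13.7 CPM with a median of 9.78 CPM. The groups overlapped over most of their range, with 3 of 7 BMAd-DTA libraries above every control. The log2 fold change of 0.23 ± 0.22 (SE; edgeR adjusted p = 0.668, exact permutation p = 0.361) had an interval from -0.25 to 0.70, which includes the 0.50 of Pcolce.

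**Figure D1:**
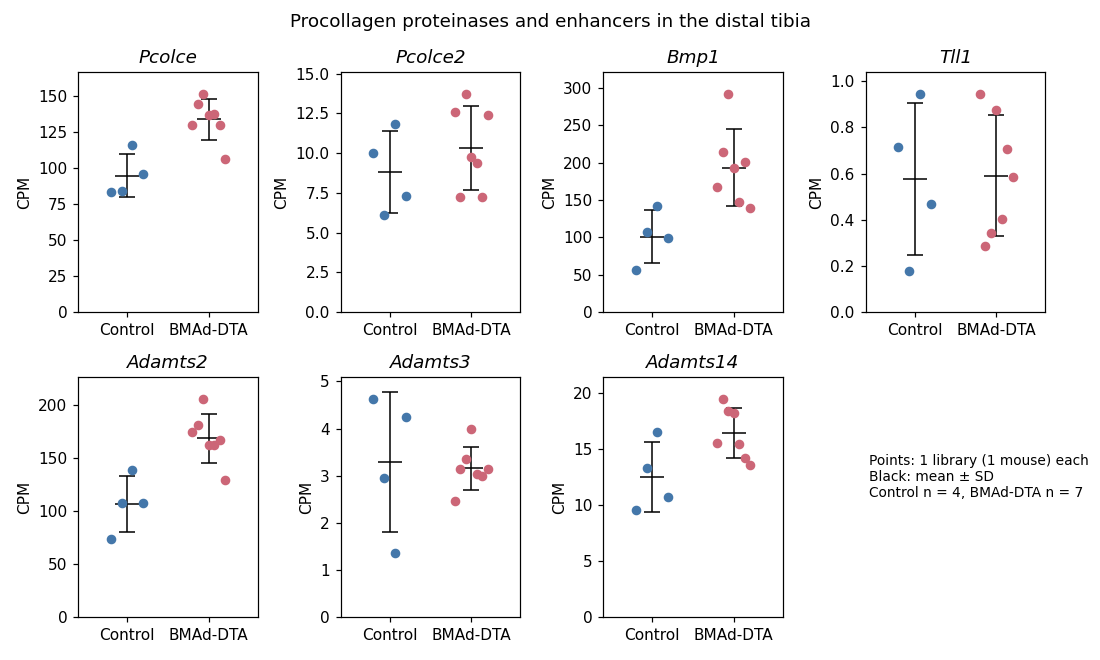
CPM of each of the 7 genes (vertical axis, linear and from 0, a separate scale per panel) in 4 control and 7 BMAd-DTA libraries, with 1 point per mouse and the mean ± SD in black. For Bmp1, Pcolce and Adamts2, 6 of 7 BMAd-DTA points lie above every control, while the groups overlap broadly for Tll1, Pcolce2 and Adamts3.

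Of the N-proteinases, Adamts2 (plus strand, chr11:50602084-50807573) differed most between the groups. The controls measured 73.6, 107, 139 and 107 CPM, and the BMAd-DTA libraries 129 to 206 CPM with a median of 167 CPM. The pattern matched that of Bmp1 and Pcolce, with 6 of 7 BMAd-DTA libraries above every control and BMAd-DTA 7 under Control 3. Means were 107 ± 26.6 CPM (SD, n = 4) and 169 ± 23.0 CPM (SD, n = 7), and the log2 fold change was 0.66 ± 0.15 (SE; edgeR adjusted p = 0.0720, DESeq2 adjusted p = 0.00141, exact permutation p = 0.00606).

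Adamts14 (minus strand, chr10:61197112-61273438) was lower in abundance and differed less. The controls measured 9.53, 13.3, 16.5 and 10.7 CPM, and the BMAd-DTA libraries 13.6 to 19.4 CPM with a median of 15.6 CPM. Only 3 of 7 BMAd-DTA libraries exceeded every control. The log2 fold change of 0.39 ± 0.15 (SE) did not pass in either tool (edgeR adjusted p = 0.215, DESeq2 adjusted p = 0.131, exact permutation p = 0.0333).

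Adamts3 (minus strand, chr5:89677087-89883334) had controls that scattered widely, with a coefficient of variation of 44.9%, second to Tll1 with 57.3%. They measured 4.63, 2.94, 1.36 and 4.25 CPM, and the BMAd-DTA libraries 2.47 to 3.99 CPM with a median of 3.14 CPM, inside the control range in every case. The log2 fold change was -0.062 ± 0.27 (SE; edgeR adjusted p = 0.940, exact permutation p = 0.858), with an interval from -0.64 to 0.52. Of 3 genes with which ADAMTS3 acts outside collagen, 0 passed. Their log2 fold changes ran from -0.069 for Ccbe1, with an interval from -0.57 to 0.43, to 0.13 for Vegfc, with an interval from -0.17 to 0.43.

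The sequences before the starts of Adamts2 and Adamts3, which encode related proteinases, are shown as a pair. For Adamts2, 6 of 7 BMAd-DTA libraries lay above every control, and for Adamts3 0 did. Whether the fold changes of these genes differed from each other was not tested. RefSeq promoter entries on GRCm38.p6 were found for 6 of 7 members, and Bmp1 had none. The 250 bases before each RefSeq start were searched on both strands for the letters TATAAA of a minimal TATA box, for CCAAT, for the GC box sequence GGGCGG and for TGTGGT, which forms the core of RUNX sites. Matches are in capitals. Adamts2 is given at chr11:50601835-50602084 on the plus strand and Adamts3 at chr5:89883335-89883584 on the minus strand.
Adamts2: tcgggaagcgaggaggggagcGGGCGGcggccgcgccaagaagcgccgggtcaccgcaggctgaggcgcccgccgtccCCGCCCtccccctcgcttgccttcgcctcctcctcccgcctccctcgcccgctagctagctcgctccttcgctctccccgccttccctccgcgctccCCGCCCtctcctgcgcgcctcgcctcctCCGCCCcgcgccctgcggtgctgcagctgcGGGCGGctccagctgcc
Adamts3: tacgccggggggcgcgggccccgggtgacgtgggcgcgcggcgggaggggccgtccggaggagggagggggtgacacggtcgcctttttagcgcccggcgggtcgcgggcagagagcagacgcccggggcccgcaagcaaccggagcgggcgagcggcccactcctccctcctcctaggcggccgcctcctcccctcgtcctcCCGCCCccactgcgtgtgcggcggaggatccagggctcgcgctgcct
Both windows had a GC content of 78.0%, beside a median of 52.4% over 32851 promoters, and held 34 and 35 CpG sites. Adamts2 had 5 GC boxes and Adamts3 had 1. Adamts14 had 6, of which 2 overlapped each other, Pcolce and Pcolce2 had 1 each, and Tll1 had none but 1 CCAAT box. At least 1 GC box was found in 32.7% of all promoters. TATAAA and TGTGGT, present in 12.4% and 14% of all promoters, were in none of the 6 windows, and CCAAT was in 33.8%. A match of letters is not evidence of binding.

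To compare levels between genes, CPM was divided by the kilobases of exon of each gene, with the exons of all its annotated transcripts merged. Lengths of the expressed transcripts were not determined, so the order and the family shares rest on these annotated lengths. In controls Pcolce stood highest with 24.8 ± 3.93 CPM per kb (SD, n = 4), followed by Adamts2 with 11.4 ± 2.85 and Bmp1 with 11.4 ± 3.99 CPM per kb, which could not be ordered. Adamts14 (2.40 ± 0.59 CPM per kb) and Pcolce2 (1.91 ± 0.56) overlapped, Adamts3 had 0.607 ± 0.27 CPM per kb, and Tll1 came last with 0.074 ± 0.043 CPM per kb. In BMAd-DTA mice Pcolce had 34.9 ± 3.72, Bmp1 21.8 ± 5.80 and Adamts2 18.1 ± 2.47 CPM per kb (SD, n = 7). Within libraries, Pcolce exceeded Bmp1 per length in 4 of 4 controls and 7 of 7 BMAd-DTA mice. Bmp1 exceeded Adamts2 in 2 of 4 controls and in 6 of 7 BMAd-DTA libraries.

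A single gene thus made most of the transcript in each family. Bmp1 made 97.2% to 99.1% of the summed per-length level of Bmp1, Tll1 and Tll2 in controls and 95.5% to 98.6% in BMAd-DTA mice. For this share, 4 of 7 BMAd-DTA libraries were below every control. Adamts2 made 78.7 ± 2.94% (SD, n = 4) of the N-proteinase level in controls and 82.8 ± 1.65% (SD, n = 7) in BMAd-DTA mice, and 6 of 7 BMAd-DTA libraries were above every control. Pcolce made 92.9 ± 1.58% and 93.9 ± 1.72% of the enhancer level, and 4 of 7 BMAd-DTA libraries were above every control. On the log2 scale, the CPM of Pcolce stood 0.031 below that of Bmp1 in controls and 0.50 below it in BMAd-DTA mice, and 6 of 7 BMAd-DTA libraries were under every control. The difference of -0.47 between the groups became -0.27 without Control 1, and it was not tested.

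The same few libraries sat at the edges for several members. Control 1 was the lowest of all 11 libraries for Bmp1, Pcolce, Adamts2 and Adamts14 and the highest for Adamts3. Without it, the log2 fold changes of Bmp1, Pcolce and Adamts2 were 0.74, 0.44 and 0.52 (edgeR adjusted p = 0.248, 0.234 and 0.234), and no gene of the whole table passed, although 1784 had an unadjusted p under 0.05. Control 3 was the highest control for Bmp1, Pcolce, Pcolce2, Tll1, Adamts2 and Adamts14 and the lowest for Adamts3. BMAd-DTA 7 was the lowest BMAd-DTA library for Bmp1, Pcolce, Adamts2 and Adamts14. BMAd-DTA 3 was the highest library of all for Bmp1, Pcolce, Pcolce2 and Adamts2. Averaged over the 6 members other than Tll1, BMAd-DTA 3 had a mean rank of 1.67 out of 11, and Control 2 ranked lowest with 9.5. Without Control 3, Bmp1, Pcolce and Adamts2 passed the edgeR threshold (adjusted p = 0.0458, 0.0369 and 0.0373), and 4 members separated the groups. Over all genes, 292 passed without that library, as against 13 with it. Leaving out BMAd-DTA 7 made 3 members separate the groups but let none pass. The share of all genes that separated without Control 3 or without BMAd-DTA 7 was not determined, so these counts of members have no background. Both counts were fixed by the CPM values given above, as the library left out was the one that made the groups overlap. They are no further evidence of a difference.

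After subtracting each group's mean, the log2 CPM of Bmp1 and Adamts2 correlated with r = 0.932 over the 11 libraries, and both correlated with Pcolce (r = 0.748 and 0.851) and Adamts14 (r = 0.809 and 0.825). Pcolce2 stood apart from these 4 genes, with r between 0.00784 and 0.166, and Adamts3 correlated negatively with the other 5 genes, with r between -0.302 and -0.634. These values are descriptions over libraries that share depth and tissue composition across genes, so they carry no test. Control 1, the lowest library for Bmp1, Pcolce, Adamts2 and Adamts14 and the highest for Adamts3, enters each r. The r between members without it are not given here. Among 12972 genes averaging 50 counts or more, those most like Bmp1 were Cpe, encoding carboxypeptidase E (r = 0.971), Fkbp10, a collagen chaperone of the endoplasmic reticulum (r = 0.969), and Irf2bpl (r = 0.957). Most like Adamts2 were Maged1 (r = 0.975), Mecr (r = 0.952) and Iglc1, an immunoglobulin light chain constant gene (r = 0.943). Closest to Pcolce were 2310039H08Rik (r = 0.982), 1110065P20Rik (r = 0.980) and Id3 (r = 0.957). For Adamts14 they were Arhgap42 (r = 0.966), Osbpl5 (r = 0.958) and Rai1 (r = 0.947). For Pcolce2 they were Cacnb2 (r = 0.906), Fam57a (r = 0.894) and Lrrc49 (r = 0.867), and for Adamts3 they were Txlng (r = 0.957), Prps1 (r = 0.956) and Ipo7 (r = 0.936). Without Control 1, the r of these named genes with their members ran from 0.879 for Lrrc49 to 0.982 for 1110065P20Rik. Many genes were alike in this sense, and 5% of those compared had an r above 0.675 with Bmp1 over all 11 libraries.

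The genes around the members were taken from lists of the same pathway, which were also chosen with earlier results of these data known. Tll2 was the only other C-proteinase with a value, as Mep1a and Mep1b were not analysed here. It measured 0.441, 0.412, 0.827 and 0.830 CPM in controls and 1.12 to 3.88 CPM with a median of 3.01 CPM in BMAd-DTA mice. Every BMAd-DTA library was above every control, although at few reads, and the log2 fold change of 2.12 ± 0.40 (SE) did not pass in edgeR (adjusted p = 0.0675) but did in DESeq2 (adjusted p = 4.89e-05). Its fitted difference was larger than that of any of the 7 members, which was not tested, and its level stayed far under that of Bmp1.

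Proprotein convertases, which remove the prodomains of the tolloid and ADAMTS proteinases, formed a list of 4, of which 0 passed in edgeR, 2 passed in DESeq2 and 3 were fitted higher, with a median log2 fold change of 0.30. Pcsk5 had the highest log2 fold change of 0.64 and measured 8.82 to 12.3 CPM in controls against 14.1 to 20.7 CPM in BMAd-DTA mice, without overlap. Pcsk7 had the lowest, -0.037. Of the 7 cofactors and inhibitors of the proteinases, 0 passed in edgeR, 3 passed in DESeq2 and 5 were fitted higher, the median log2 fold change being 0.23. They ranged from Sfrp2, a secreted frizzled-related protein known to modulate tolloid activity (log2 fold change 1.36, edgeR adjusted p = 0.120), to A2m, a broad proteinase inhibitor (-0.21). Postn, encoding periostin, a matrix protein that helps place BMP1 on its substrate, was picked out after its values were seen. It measured 51.8 to 126 CPM in controls and 158 to 317 CPM in BMAd-DTA mice, again without overlap (edgeR adjusted p = 0.0720).

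With all mice included, the fitted differences of the main substrates were mostly larger than those of the members, which was not tested. Of 12 procollagen genes, which are the fibrillar collagens and Col7a1, 11 were fitted higher in the mutants. Their log2 fold changes had a median of 1.0, beside 0.0018 over all genes, although 0 passed the edgeR threshold and 5 passed in DESeq2. In 6 of the 12 the groups did not overlap. Col1a1, encoding the pro-alpha1 chain of type I collagen, had the largest log2 fold change, 1.35 (edgeR adjusted p = 0.115). Its controls measured 1245, 5588, 6226 and 5823 CPM, and BMAd-DTA libraries 7609 to 18037 CPM. Col1a2 had a log2 fold change of 1.26 (edgeR adjusted p = 0.142), with 1021, 4710, 5230 and 4517 CPM in controls and 5464 to 15194 CPM in BMAd-DTA mice. Control 1 was thus far below the other controls for both chains. It was also the lowest control for Col2a1, Col5a1, Col5a2, Col5a3, Col11a1, Col11a2 and Col24a1, but not for Col3a1, Col7a1 and Col27a1. Fold changes of the procollagen genes without Control 1 are not given here. With all mice, Col7a1, the anchoring fibril collagen, had the smallest log2 fold change, -0.22. Of 13 tested non-fibrillar or other substrates of tolloid proteinases, 11 were fitted higher, 0 passed in edgeR and 2 in DESeq2, with a median log2 fold change of 0.30 between Dmp1, an osteocyte matrix protein (0.57), and Lama3, a laminin chain (-0.25). Bgn, encoding the small proteoglycan biglycan, also picked out after its values were seen, lay nearest the threshold with 833 to 1130 CPM in controls and 1376 to 1534 CPM in BMAd-DTA mice (log2 fold change 0.50, edgeR adjusted p = 0.0531).

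**Figure D2:**
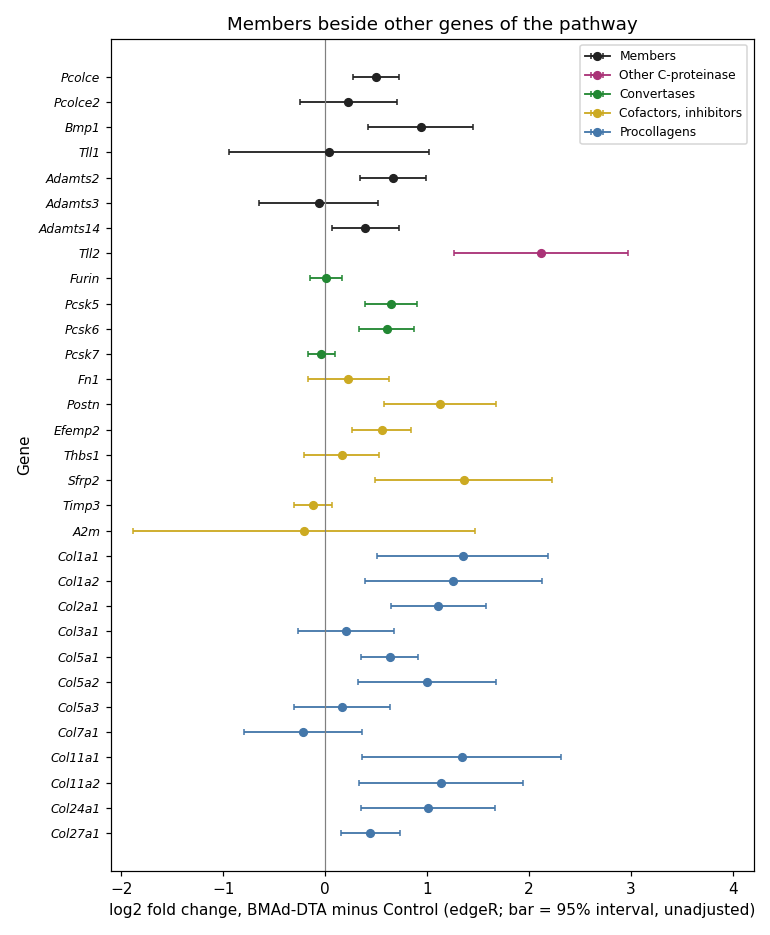
Fitted log2 fold changes (horizontal axis, BMAd-DTA minus control, edgeR) with unadjusted 95% intervals for the 7 members and for other genes of the pathway, coloured by list. Bmp1, Adamts2 and Pcolce lie between 0.50 and 0.94, to the left of Col1a1 at 1.35 and of Tll2 at 2.12.

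Set against their main substrate, the members other than Tll1 had lower mean ratios in BMAd-DTA mice. Both chains of that substrate were fitted higher in BMAd-DTA mice. Of these members only Adamts3 was itself fitted lower, with a log2 fold change of -0.062. For each library, the log2 CPM of a member was taken minus the log2 of the summed CPM of Col1a1 and Col1a2. For Pcolce the controls measured -4.76, -6.94, -6.63 and -6.76, and the BMAd-DTA libraries ran from -7.78 to -6.65, with 5 of 7 below every control. For Adamts2 the controls measured -4.94, -6.59, -6.37 and -6.59 against -7.34 to -6.23, and again 5 of 7 lay below every control. Bmp1 followed with controls of -5.34, -6.59, -6.33 and -6.71 against -7.09 to -6.28, and 5 of 7 below. Adamts14 also had 5 of 7, Pcolce2 4 of 7 and Adamts3 2 of 7 libraries below every control.

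In group means, the ratio differed by -0.97 for Pcolce, -0.79 for Adamts2, -0.50 for Bmp1, -1.06 for Adamts14, -1.24 for Pcolce2 and -1.40 for Adamts3 on the log2 scale. Control 1, with its low collagen, supplied much of these differences. Without it they were -0.47, -0.40, -0.20, -0.62, -0.61 and -0.63 in the same order, still below 0 for all 6 genes, and the counts of BMAd-DTA libraries below every control were as before, since Control 1 was the highest control each time. The ratios share 1 denominator, so the 6 genes do not give separate support, and the differences were not tested. Tll1 was left out of the ratios because of its low counts.

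**Figure D3:**
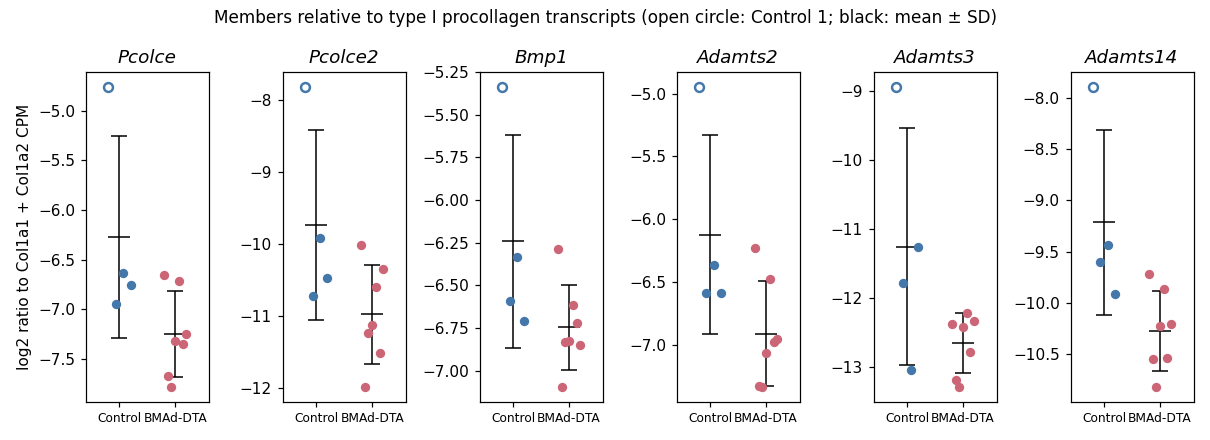
Log2 ratio of each member's CPM to the summed CPM of Col1a1 and Col1a2 (vertical axis, a separate scale per panel) in 4 control and 7 BMAd-DTA libraries, with mean ± SD in black and Control 1 as an open circle. Control 1 is the highest point in every panel, and for Pcolce 5 of 7 BMAd-DTA points lie below every control.

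Markers of other cell types in the bone were read beside the members. Dmp1, Col2a1 and Fmod stand both in a marker list and in a substrate list above, so these lists are not separate observations. Of 10 osteoblast and osteocyte markers, 10 were fitted higher and 1, Alpl, passed (log2 fold change 1.16, edgeR adjusted p = 0.0326), while 7 passed in DESeq2. Their median log2 fold change was 0.90, where the members ran from -0.062 for Adamts3 to 0.94 for Bmp1, and their summed level was 809 to 1740 CPM in controls and 1786 to 3253 CPM in BMAd-DTA mice, without overlap. Chondrocyte markers summed to 198 to 370 CPM in controls and 499 to 663 CPM in BMAd-DTA mice, most of it Col2a1. Of these, 6 of 6 tested markers were fitted higher, with a median of 0.19 on the log2 scale. None passed in edgeR, and 1, Col2a1, passed in DESeq2 (adjusted p = 1.82e-05). Tendon markers summed to 119 to 162 and 123 to 259 CPM, with 5 of 5 fitted higher and none passing in edgeR or DESeq2. The 4 fibroblast markers, 3 fitted higher and Pi16 lower, summed to 187 to 233 and 202 to 253 CPM. None of them passed in edgeR, and 1, Pdgfra, passed in DESeq2 (adjusted p = 0.0498). The tendon and fibroblast sums overlapped between the groups. No defining osteoblast marker was at 0 in either group. The part of these cell types in the members' levels was not tested.

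Skeletal muscle RNA varied widely within both groups. All 10 muscle markers were fitted lower in the mutants (median log2 fold change -0.84), and 0 passed in edgeR or DESeq2. Their sum, with a median of 507 CPM in controls and 175 CPM in BMAd-DTA mice, was 14.9 to 1287 CPM in controls, highest in Control 3, and 16.05 to 1020 CPM in BMAd-DTA mice. With a muscle score as a covariate, the log2 fold changes were 0.89 for Bmp1, 0.63 for Adamts2 and 0.46 for Pcolce, and no member passed (edgeR adjusted p = 0.173, 0.142 and 0.133).

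**Figure D4:**
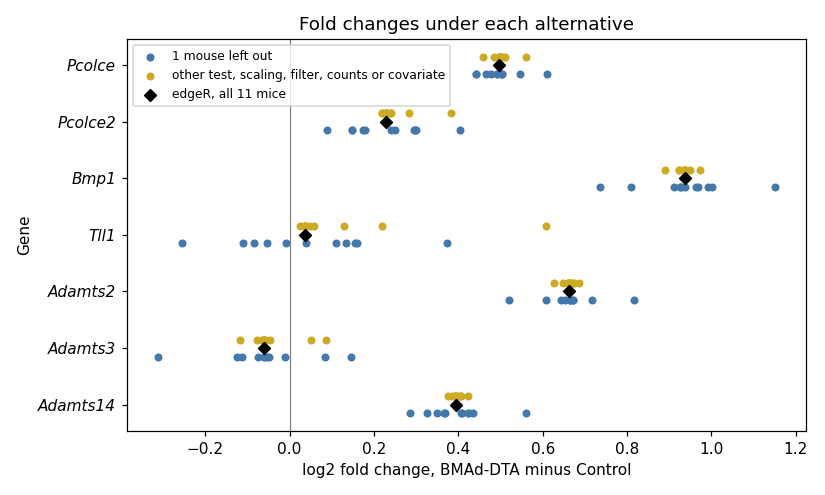
Log2 fold changes (horizontal axis, BMAd-DTA minus control) of the 7 members with all 11 mice in edgeR (diamond), with 1 mouse left out (blue) and under another test, scaling, filter, kind of counts or covariate (yellow). Bmp1, Pcolce, Adamts2, Adamts14 and Pcolce2 stay to the right of 0 throughout, whereas Adamts3 and Tll1 fall on both sides.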

How the data were processed

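RNA from whole distal tibiae, cut at the junction of tibia and fibula, frozen and powdered, was sequenced as strand-specific paired reads. The authors checked the reads with FastQC 0.11.9, mapped them to mm10 using STAR with default parameters, and deposited raw counts of read pairs per gene, which carry no normalization. The counting tool and annotation release are not given in the sources used here. The merged table (22600 genes) held the same values as the read-strand counts given for each library (55401 genes).

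Counts were tested with edgeR 4.0.16 in R 4.3.3 (filterByExpr by group, TMM scaling, quasi-likelihood test with genotype only, Benjamini-Hochberg over 16496 genes, threshold 0.05). Exact permutation tests used log2 CPM with a prior count of 2. The 95% intervals used the total degrees of freedom of the quasi-likelihood test, which add prior to residual degrees of freedom. Exonic lengths and positions came from GENCODE M21 (GRCm38), promoters from RefSeq (GRCm38.p6). Replicate numbers follow the order of the records and pair no samples, and each title carries its own animal code. Alternatives were DESeq2 1.42.0, limma 3.58.1 (voom, with and without quality weights), 3 scalings, 2 filters, both kinds of per-library counts, a muscle score (mean log2 CPM of 10 markers) as covariate, and each mouse left out. Depth per library was 16969529 to 18637663 counts.

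All 7 members were named, and from each pathway list those past the threshold and the largest and smallest log2 fold change. For each member with a mean of at least 50 counts, the 3 genes with the highest correlation were named too. Members and lists were chosen with earlier results of these data known. Steps were tested on simulated data.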

Additional observations from a re-analysis of the deposited data

Results flagged for a closer look

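In 2 of the 30 sets of values examined, 1 control lay far from the others by Dixon's criterion, and chance alone marks about 1 in 20 groups. The log2 ratio of Pcolce to Col1a1 plus Col1a2 was -4.76 in Control 1, where the nearest control had -6.63, a gap of 0.857 of the group's whole range. The log2 ratio of Adamts2 to the same denominator was -4.94 in Control 1, where the nearest control had -6.37, a gap of 0.865 of the range. Both ratios share the collagen denominator, which was lowest in Control 1, with 2926 CPM summed over the 12 procollagen genes as against 11705 to 12863 CPM in the other controls. Col1a1 and Col1a2 set most of that sum. Why that library was low was not tested.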

How the results depend on the processing

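The number of genes past the threshold was 13 in edgeR, 845 in DESeq2, 20 in voom, 238 in voom with quality weights, 20 with DESeq2 size factors and 3 with the muscle score, and leaving out 1 mouse moved it between 0 (without Control 1, Control 2, BMAd-DTA 1 or BMAd-DTA 6) and 292 (without Control 3). Without BMAd-DTA 4 it was 3, without BMAd-DTA 3 it was 8 and without Control 4 it was 89. The number of members past the threshold was 3 in DESeq2 and 3 in voom with quality weights (Bmp1, Pcolce and Adamts2 each time), 0 to 3 when 1 mouse was left out, and 0 in the other alternatives. The number of members that separated the groups was 1 with library totals only and 0 to 4 when 1 mouse was left out. The share of all genes that separated in these settings was not determined, so these counts have no background and give no result about the members. Bmp1, Pcolce, Adamts2, Adamts14 and Pcolce2 kept their direction in every alternative run. When 1 mouse was left out, log2 fold changes ran from 0.74 to 1.15 for Bmp1, 0.44 to 0.61 for Pcolce and 0.52 to 0.82 for Adamts2, lowest without Control 1 and highest without Control 3 each time. Their edgeR adjusted p then reached at most 0.248, 0.234 and 0.234. Adamts3 turned to 0.052 in voom, 0.087 in voom with quality weights, 0.14 without Control 1 and 0.084 without Control 4, and ran from -0.31 to 0.14 when 1 mouse was left out. Tll1 turned to -0.26 without Control 2, -0.054 without Control 4, -0.11 without BMAd-DTA 1, -0.084 without BMAd-DTA 4 and -0.0089 without BMAd-DTA 6, and ran from -0.26 to 0.37 when 1 mouse was left out. With at least 1 CPM required in 4 libraries, Tll1 was not tested. The causes were not tested. No paired analysis was possible because the numbers only name the samples.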
